A study of Homo sapiens with 35 samples.

Results

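The comparison concerned the maturation of endoderm made from human embryonic stem cells with small molecules in place of Activin A, from 24 h to 72 h of culture. Bulk RNA sequencing gave 8 libraries for it, of 30 in the deposited bulk table and 35 samples in the series. The libraries were chosen by their labels: 4 from cells treated for 24 h and 4 from cells sorted at 72 h. All came from H1, an established human embryonic stem cell line. The 24 h libraries were from cells given BRD with CHIR (2 libraries) or JNJ with CHIR (2 libraries), where BRD and JNJ are the labels' names for a pair of small molecules and CHIR is CHIR99021, an inhibitor of GSK3 that activates Wnt signalling. The 72 h libraries were from cells given the same compound with CHIR on the first day and the compound alone on each of the days that followed, then sorted (2 BRD, 2 JNJ). The markers of the sort are not given in the sources used here, so a gene used as its gate would not be an independent result. Activin A libraries (AA) of the same design, with 2 at 24 h and 2 sorted at 72 h, and 2 libraries of cells given BRD without CHIR for 24 h, were used only beside these results. By the protocols, CHIR was given at 3 uM and Activin A at 100 ng per ml. Nothing in the labels says whether 2 libraries of a group came from separate cultures, so p-values measure the spread between these libraries, which may be technical.

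Definitive endoderm forms in the embryo when cells leave the pluripotent state, pass through the primitive streak and take up an endodermal programme. Nodal, or Activin A in culture, drives the step through SMAD2 and SMAD3, with Wnt signalling starting it. Streak regulators such as TBXT, MIXL1 and EOMES come first. SOX17, FOXA2, GATA4, GATA6 and the surface receptors CXCR4 and KIT follow, and hepatic and gut regulators such as HNF4A come later.

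The 4 markers given for these cells are all transcription factors. SOX17 specifies endoderm, FOXA1 (chr14:37589984-37596059) opens chromatin at endodermal enhancers, HNF4A (chr20:44355700-44434596) is a nuclear receptor of liver and gut, and GATA3 (chr10:8045378-8075203) is a zinc-finger factor best known from T cells and trophoblast (GRCh38 positions of the whole genes, introns included, from GENCODE 29). Stretches of 250 bases before the RefSeq start (GRCh38.p14) were read for 20 genes of the results, of which 18 were in the table. They are shown for some of the genes that went from 0 or almost 0 to a clear level, as the sequence next to their annotated starts. Capitals mark matches, on either strand, to the 5 motifs searched. For GATA-binding factors the motif was AGATAA. For the nuclear receptor HNF4 it was CAAAGTCCA. For forkhead (FOX) proteins it was TGTTTAC. For SOX proteins it was AACAAT, and for the Wnt-linked TCF proteins CTTTGAT. Each stretch printed held at most 1 match, so none overlapped.
HNF4A: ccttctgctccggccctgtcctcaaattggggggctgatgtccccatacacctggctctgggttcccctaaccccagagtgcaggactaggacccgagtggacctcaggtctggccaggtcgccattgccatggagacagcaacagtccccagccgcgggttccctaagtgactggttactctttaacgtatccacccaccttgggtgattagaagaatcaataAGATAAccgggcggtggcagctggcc
APOA2: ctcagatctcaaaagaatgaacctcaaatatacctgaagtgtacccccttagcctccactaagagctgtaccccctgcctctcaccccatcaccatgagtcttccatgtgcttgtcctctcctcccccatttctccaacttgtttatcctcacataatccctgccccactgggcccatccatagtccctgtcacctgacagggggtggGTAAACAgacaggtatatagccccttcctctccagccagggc
ANKRD1: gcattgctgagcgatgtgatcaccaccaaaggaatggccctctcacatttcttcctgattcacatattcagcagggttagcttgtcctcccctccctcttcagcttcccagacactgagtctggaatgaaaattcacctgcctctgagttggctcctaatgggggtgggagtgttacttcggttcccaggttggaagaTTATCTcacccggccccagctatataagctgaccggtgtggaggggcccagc
GATA3: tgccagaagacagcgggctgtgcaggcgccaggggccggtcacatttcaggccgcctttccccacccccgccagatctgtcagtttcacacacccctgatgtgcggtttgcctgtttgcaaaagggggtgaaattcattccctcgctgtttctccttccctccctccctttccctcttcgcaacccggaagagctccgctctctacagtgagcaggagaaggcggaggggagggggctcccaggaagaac
These lie at chr20:44355449-44355698 on the plus strand, chr1:161223629-161223878 on the minus strand, chr10:90921088-90921337 on the minus strand and chr10:8045083-8045332 on the plus strand. HNF4A and ANKRD1 held a GATA match, 26 and 52 bases before the start, APOA2 held a FOX match 42 bases before it, and GATA3 held none. Of the 18 stretches read, 6 held at least 1 match. Among genes not shown that also rose from 0 or almost 0, ISL1 and RARB held 1 each. FOXA1, CXCR4, SLC40A1 and GREB1L held none. Over 27305 promoters the GATA motif stood in 9.37%, HNF4 in 0.293%, FOX in 2.98%, SOX in 9.19% and TCF in 2.28%. Among the promoters of genes tested here (11679 found) the GATA, HNF4, FOX, SOX and TCF shares were 4.82%, 0.188%, 1.89%, 4.78% and 1.3%. Among the promoters of genes with a large rise (612 found; the call is given below) they were 8.17%, 0.163%, 3.76%, 8.17% and 1.31%, and among those with a large fall (496 found) 5.04%, 0, 1.61%, 5.65% and 1.81%. A match is a string of letters and was not tested as a binding site.

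The libraries differed with time in ways other than age. The 24 h libraries held 13 to 27.9 M (mega) counts and belonged to library series 38, after the first digits of the numbers in their library names. The 72 h libraries held 5.13 to 7.59 M and belonged to series 46. MTRNR2L genes, near-copies of mitochondrial RNA, took 0.247 to 0.313% of counts at 24 h and 7.58 to 8.48% at 72 h, and these 10 genes were left out before any scaling. Although deeper, each 24 h library had more genes listed at 0 (1328 to 1695) than each 72 h library (846 to 1123). Where a gene was at 0 in one JNJ 24 h library, the other held a median of 25 counts, against 3 at 72 h, so a 0 at 24 h covers more than counting error. Time, library series, sorting and the end of CHIR treatment after the first day cannot be told apart within the 8 libraries. Results were therefore read first from large changes, though their size does not tell these apart either. The main ones are set beside the Activin arm, where series differ in the same way and the 72 h cells were sorted too. Whether that sort kept the same fraction of cells as with the compounds is not given. Others are set beside the BRD libraries without CHIR, which are 24 h libraries of series 46.

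Rises and falls were nearly balanced in number, and 820 genes rose and 690 fell by a large change. Levels are CPM (counts scaled to the library total) with TMM scaling, errors of levels are SD with n = 4, and changes are log2 of 72 h over 24 h with their SE, from edgeR's quasi-likelihood test with Benjamini-Hochberg adjustment. Of 14865 genes tested, 7657 were called at an adjusted p under 0.05 (51.5%), 3793 higher at 72 h (25.5%) and 3864 lower (26%). A change was called large where it also reached 4-fold and every library of one time lay above every library of the other. Large calls numbered 1510 (10.2%), with 5.52% of genes tested rising and 4.64% falling, and times did not overlap for 48.9% of genes tested. Leaving out any single library gave 1361 to 1645. Of the 820 rises, 115 were at 0 counts in all 4 of the 24 h libraries, and 34 of the 690 falls were at 0 in all 4 of the 72 h libraries. For such genes the fold is given as a lower bound against a floor of 3 counts per library. It is a bound for counting error only, and a 0 at 24 h covers more than that.

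**Figure D1:**
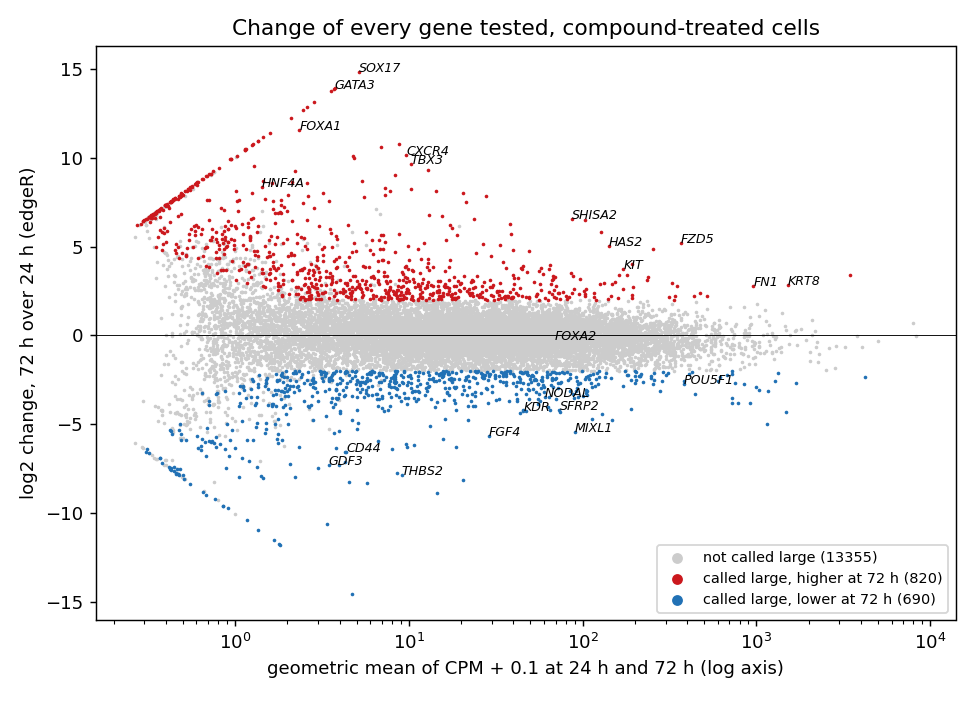
The log2 change from 24 h to 72 h of each gene tested (vertical) against its geometric mean level in CPM + 0.1 on a log axis (horizontal). The 820 genes called large and higher at 72 h are red and the 690 called large and lower are blue. The straight upper edge holds genes at 0 at 24 h, such as SOX17 and GATA3, whose fitted change depends on the prior count.

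All 4 markers were at or almost at 0 at 24 h and clearly present at 72 h. SOX17 (chr8:54457935-54460888) was at 0 CPM in every 24 h library, and stood at 242 and 285 CPM in the BRD libraries and 249 and 283 CPM in the JNJ libraries at 72 h. That is a mean of 265 ± 22.5 CPM, at least 1719-fold higher (adjusted p = 4.7e-11). GATA3 was likewise at 0 in every 24 h library, and at 158 and 122 CPM with BRD and 126 and 148 CPM with JNJ at 72 h, at least 899-fold higher (adjusted p = 2.6e-10). The times did not overlap for either gene, and the compounds gave interleaved values. FOXA1 stood at 47 and 50.6 CPM with BRD and 55.1 and 44.9 CPM with JNJ at 72 h, against at most 0.0422 CPM in a 24 h library (adjusted p = 1.1e-09). HNF4A stood at 18.5 and 12.4 CPM with BRD and 16.3 and 11.3 CPM with JNJ at 72 h, against at most 0.0795 CPM in a 24 h library (adjusted p = 6.5e-07). BRD without CHIR at 24 h, in series 46, gave 0.166 and 0 CPM for SOX17 and 0 and 0.0235 CPM for GATA3. For FOXA1 it gave 0 and 0.118 CPM and for HNF4A 0.166 and 0.0235 CPM, so all 4 were near 0 there too. Those cells had no CHIR, and FOXA2 and EOMES were at or near 0 in them as well. They therefore cannot tell whether library series affects these 4 markers. In bulk RNA, more cells of a type and more RNA per cell cannot be told apart.

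Of the factors that define definitive endoderm, most rose and FOXA2 did not. In the list of 20 such factors, all tested, 14 rose and 4 fell, 13 of the rises and 1 of the falls were large, and the median change was 3.16, against 0.04 over all genes tested. The list holds SOX17, FOXA1 and HNF4A from above, which are thus counted again. Of all genes tested 25.5% rose and 26% fell, with 5.52% and 4.64% large, and each list count below is to be read against these shares. GATA6, a factor needed for endoderm in human cells, stood at 23.2 and 18.2 CPM with BRD and 12.3 and 10.6 CPM with JNJ at 24 h, and at 179.5 and 197 CPM with BRD and 207 and 186 CPM with JNJ at 72 h (3.64 ± 0.12, adjusted p = 3.3e-10). GATA4, its close relative, went from 8.01 ± 1.55 to 42.2 ± 0.961 CPM (2.39 ± 0.20, adjusted p = 5.6e-07). HHEX, a regulator of anterior endoderm and liver, was uneven at 24 h, at 21.4 and 6.52 CPM with BRD and 13.7 and 6.42 CPM with JNJ, and every 72 h library lay above these, at 81 and 74.8 CPM with BRD and 103 and 114 CPM with JNJ (2.94 ± 0.31, adjusted p = 5.6e-06). PRDM1, a repressor expressed in endoderm, went from 2.24 ± 1.38 to 134 ± 12.6 CPM (6.07 ± 0.18, adjusted p = 9.7e-11).

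FOXA2, the pioneer factor already expressed at the streak, was at 73.5 and 76.6 CPM with BRD and 85.3 and 64.6 CPM with JNJ at 24 h, and at 66 and 63.2 CPM with BRD and 61.3 and 60.4 CPM with JNJ at 72 h. The change was -0.26 ± 0.12, adjusted p = 0.092, short of the threshold; without the second JNJ library of 24 h it was called as a fall of -0.35 (adjusted p = 0.0245). The other falls on the list were EOMES, a T-box factor of streak and early endoderm (343 ± 22.9 to 249 ± 25.7 CPM, -0.46 ± 0.10, adjusted p = 0.0019), GSC, MIXL1 and ZIC2, of which MIXL1 is described with the streak. GSC, a homeobox factor of the organizer, went from 207 ± 23.3 to 63.6 ± 13.6 CPM (-1.70 ± 0.14, adjusted p = 6.3e-07). In the BRD libraries without CHIR, FOXA2 was at 0 and EOMES at 0.0471 CPM, so for these genes the 24 h libraries of series 46 serve as no baseline.

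**Figure D2:**
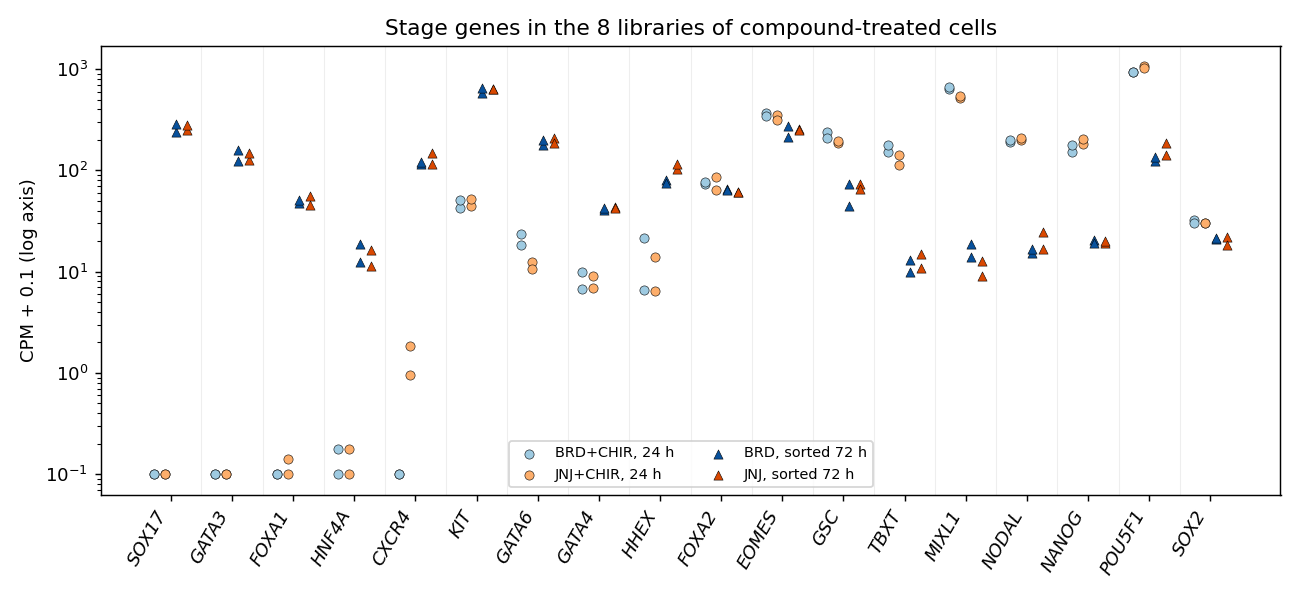
Levels in CPM + 0.1 on a log axis of 18 stage genes in each of the 8 libraries, with circles for 24 h, triangles for 72 h, blue for BRD and orange for JNJ. SOX17, GATA3, FOXA1 and HNF4A sit at the bottom of the plot at 24 h and above 10 CPM at 72 h, FOXA2 and EOMES are close at both times, and MIXL1, NODAL, TBXT and NANOG are lower in every 72 h library.

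Surface and secreted markers of endoderm rose together with these factors. The sort markers are not given, and a surface receptor such as CXCR4 or KIT would not be an independent result if it was a gate. Of 20 such genes tested, 16 rose and 1 fell, with 10 of the rises large and a median change of 2.03. CXCR4, the chemokine receptor, was at 0 in both BRD libraries and at 0.851 and 1.73 CPM in the JNJ libraries at 24 h, and at 116 and 121 CPM with BRD and 115 and 147 CPM with JNJ at 72 h (10.17 ± 0.31, adjusted p = 4.3e-10). The size of this change depends on the prior count, since BRD started from 0. With JNJ alone it was 6.68 ± 0.30. KIT, the receptor for stem cell factor, was already present, at 42.1 and 50.8 CPM with BRD and 44.1 and 51.6 CPM with JNJ, and reached 577 and 649 CPM with BRD and 634 and 637 CPM with JNJ (3.73 ± 0.11, adjusted p = 9.6e-11). The BRD libraries without CHIR held KIT at 56.5 CPM, close to the 24 h level of series 38. SHISA2, an inhibitor of Wnt and FGF receptor maturation, went from 8.98 ± 1.4 to 838 ± 43.5 CPM (6.55 ± 0.12, adjusted p = 5.4e-12), a 93.5-fold rise. LRIG3, a membrane protein with leucine-rich repeats, went from 32.1 ± 3.97 to 290.2 ± 9.83 CPM (3.18 ± 0.11, adjusted p = 2.6e-10). CER1, a secreted antagonist of Nodal, BMP and Wnt, was 1.97-fold higher at 72 h, but its ranges met, from 32.5 to 77.7 CPM at 24 h and from 55.8 to 131 CPM at 72 h (0.98 ± 0.20, adjusted p = 0.0011).

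Among later endodermal genes, liver products rose or were not called, and gut regulators moved both ways. Of 17 gut tube and foregut regulators tested, 8 rose and 6 fell, with 6 rises and 4 falls large. ISL1, a LIM homeodomain factor of foregut mesoderm and other tissues, was at 0 in every 24 h library and at 25.4 and 24.3 CPM with BRD and 20.2 and 29.8 CPM with JNJ at 72 h, at least 162-fold higher (adjusted p = 3.9e-08). The large falls there were the hindgut factors CDX1 and CDX2 and the hepatic and pancreatic factors ONECUT1 and PROX1. Of 10 tested genes for secreted and metabolic liver products, 6 rose and none fell. APOA2, an apolipoprotein of high-density lipoprotein, went from 0 in every library to 13.2 and 11.5 CPM with BRD and 12.3 and 14 CPM with JNJ, at least 82.8-fold higher (adjusted p = 8.3e-07). APOB, the main protein of low-density lipoprotein, went from 1.1 ± 1.02 to 20.7 ± 2.69 CPM (4.75 ± 0.47, adjusted p = 2.8e-06), and CPS1, the first enzyme of the urea cycle, from 25.3 ± 2.8 to 66.8 ± 3.14 CPM (1.4 ± 0.14, adjusted p = 2.8e-06). AFP, the fetal albumin-like protein, was too low to test. It was at 0 counts in 7 of the 8 libraries and at 38 counts in the second JNJ library of 24 h.

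Most genes of the primitive streak fell. Of 17 tested, 15 fell and 2 rose, 7 of the falls and 1 of the rises were large, and the median change was -1.70. MIXL1, a homeobox factor of mesendoderm, went from 632 and 672 CPM with BRD and 512 and 543 CPM with JNJ at 24 h to 13.9 and 18.7 CPM with BRD and 12.7 and 9.01 CPM with JNJ at 72 h (-5.47 ± 0.14, adjusted p = 2.9e-11), 44.2-fold lower. TBXT, the founding T-box factor, went from 150.2 and 176 CPM with BRD and 141 and 113 CPM with JNJ to 9.76 and 13.1 CPM with BRD and 14.8 and 10.7 CPM with JNJ (-3.58 ± 0.16, adjusted p = 2.1e-09). FGF4, a growth factor of the streak, went from 203 ± 16.8 to 3.98 ± 1.28 CPM (-5.66 ± 0.17, adjusted p = 9.7e-11). No 72 h library reached a 24 h library for these 3 genes. The rises were LHX1, a LIM homeodomain factor of anterior mesendoderm, and MESP2, a regulator of early mesoderm. Streak genes were close to 0 in the BRD libraries without CHIR, with MIXL1 at 1.41 CPM and TBXT at 0.0118 CPM, so series 46 gives no 24 h value for them.

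Most pluripotency genes fell. Of 19 tested, 12 fell, 4 rose and 3 of the falls were large, with a median of -1.15. POU5F1, the factor OCT4, went from 988 ± 63.5 to 147 ± 27.5 CPM (-2.76 ± 0.11, adjusted p = 7.6e-10) and NANOG from 179 ± 21.5 to 19.7 ± 0.513 CPM (-3.18 ± 0.12, adjusted p = 5.9e-10). DNMT3B, a de novo DNA methyltransferase, went from 572 ± 17.7 to 166 ± 18.9 CPM (-1.79 ± 0.10, adjusted p = 1.5e-08). SOX2 was at 30.7 ± 1.2 CPM at 24 h and stood at 20.6 ± 1.7 CPM at 72 h (-0.58 ± 0.17, adjusted p = 0.011); without the second JNJ library of 72 h the change was -0.51 (adjusted p = 0.06). Within series 46 the changes were -1.96, adjusted p = 5.6e-07 for POU5F1, -2.20, adjusted p = 2e-07 for NANOG and -1.66, adjusted p = 1.8e-06 for DNMT3B. Rises on the list included TDGF1, the Nodal co-receptor, LIN28A and SALL4.

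Markers of other cell types that the cultures or the sort could hold moved in different directions, and their part in the results above was not tested. Of 14 mesoderm genes tested, 8 rose and 4 fell, and the summed level of the list was 225 to 269 CPM at 24 h and 201 to 256 CPM at 72 h. FOXC1, a forkhead factor of paraxial mesoderm, rose from 1.29 ± 1.57 to 123 ± 16.8 CPM (6.79 ± 0.65, adjusted p = 2.1e-06) and PDGFRA, a receptor of mesoderm and primitive endoderm, from 0.389 ± 0.748 to 20.9 ± 5.42 CPM (8.03 ± 0.86, adjusted p = 1e-05). KDR, the VEGF receptor of early mesoderm and endothelium, fell from 200 ± 22.8 to 10.3 ± 2.52 CPM (-4.28 ± 0.15, adjusted p = 4.5e-10), and HAND2 was at 0 counts in every 72 h library. Of 9 haemato-endothelial genes tested, 3 fell and none rose, with a summed level of 209 to 265 CPM at 24 h and 16.5 to 29.1 CPM at 72 h; KDR was the most abundant member at both times. The third fall was ERG, an endothelial factor, from 1.42 ± 1.26 CPM to 0 (adjusted p = 0.033). ERG was not called by limma-voom (adjusted p = 0.305), nor in 7 of the 8 fits that left out 1 library (adjusted p = 0.0584 to 1), all but that without the first JNJ library of 24 h. Pluripotency genes summed to 6090 to 6790 CPM at 24 h and 5090 to 6100 CPM at 72 h. The most abundant members at 72 h were LIN28A (1895 CPM) and TDGF1 (1861 CPM), which both rose, so the sum does not show the falls of POU5F1 and NANOG.

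Of 9 amnion and trophoblast genes tested, 4 rose, all by large changes, and 2 fell. The summed level went from 58.6 to 73.5 CPM at 24 h to 206 to 243 CPM at 72 h, most of it GATA3, with a mean of 138.5 CPM. The rises were GATA3, GATA2, ISL1 and IGFBP3, an insulin-like growth factor binding protein. IGFBP3 went from 0.499 ± 0.391 to 33 ± 6.55 CPM (6.22 ± 0.50, adjusted p = 4.5e-07), with 17.5 CPM in the BRD libraries without CHIR. Of 14 genes of primitive and visceral endoderm tested, 10 rose and 1 fell, but this list shares SOX7, GATA4, GATA6 and HNF4A with definitive endoderm, and AFP was at 0 at 72 h. Of 9 neural and neural crest genes tested, 4 rose by large changes and 2 fell, with a summed level of 536 to 602 CPM at 24 h and 893 to 1090 CPM at 72 h. OTX2, which anterior endoderm also expresses, made up most of that sum at 72 h. It went from 55.5 ± 11.8 to 578 ± 75.3 CPM (3.39 ± 0.13, adjusted p = 9.2e-10). DLK1, a Notch-related membrane protein also made by fetal liver, went from 0.203 ± 0.259 to 95.6 ± 12.1 CPM (8.71 ± 0.43, adjusted p = 5.2e-09), and SOX10, a neural crest factor, from 1.5 ± 0.362 to 14.9 ± 1 CPM (3.33 ± 0.34, adjusted p = 4.4e-06). ZIC1 and LHX2 were at 0 counts in every 72 h library.

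**Figure D3:**
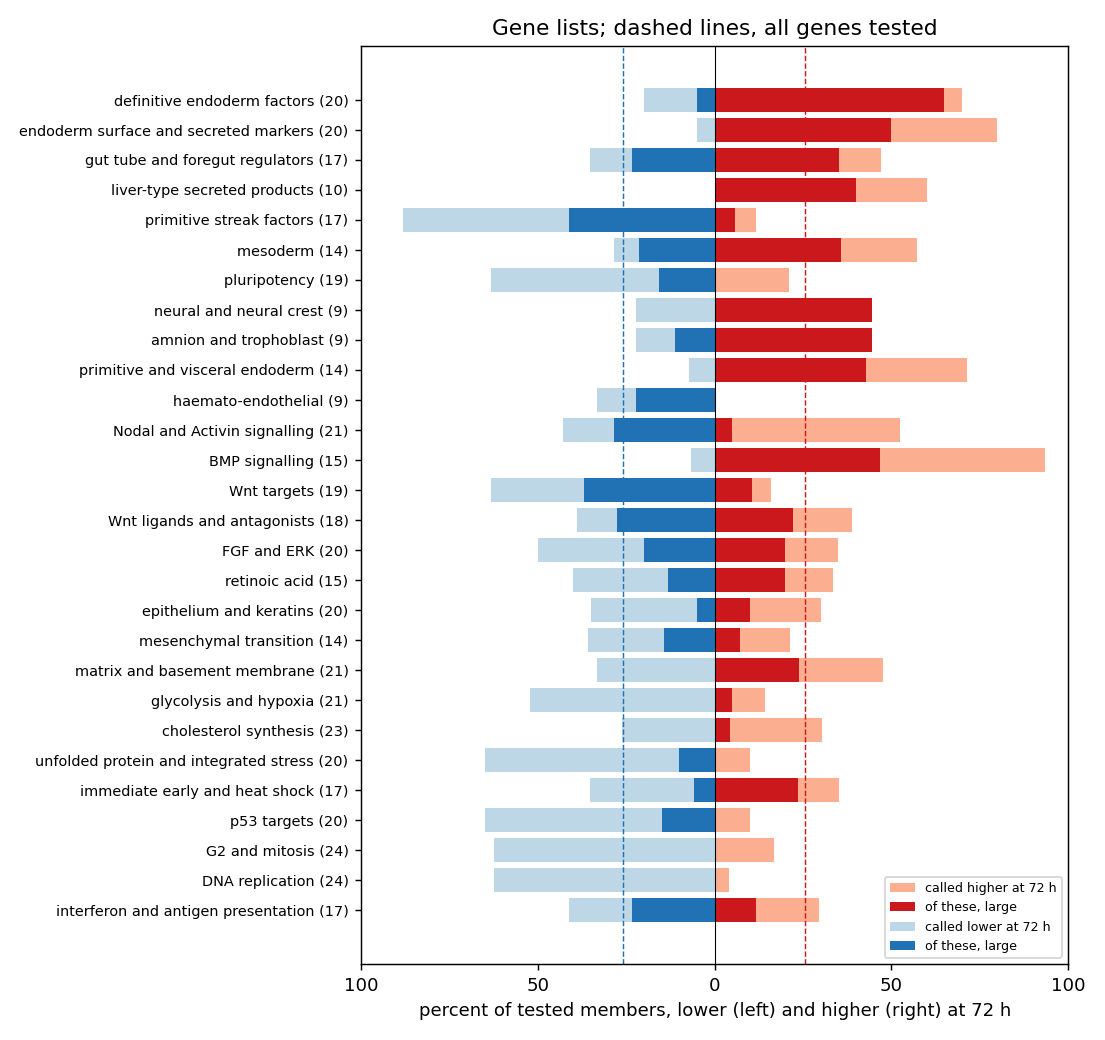
The share of tested members of each gene list called higher (right) or lower (left) at 72 h, with large calls in the darker shade and the number tested in brackets; lists with at least 9 tested members are drawn. Dashed lines mark the shares over all genes tested, 25.5% higher and 26% lower. Bone morphogenetic protein (BMP) genes reach furthest right and primitive streak factors furthest left.

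In Nodal and Activin signalling, the ligand NODAL and its feedback antagonists LEFTY1 and LEFTY2 fell. Of 21 genes tested, 11 rose and 9 fell, with 6 of the falls and 1 of the rises large. NODAL, the ligand, went from 189.8 and 201 CPM with BRD and 198 and 211 CPM with JNJ to 15.2 and 16.6 CPM with BRD and 24.6 and 16.4 CPM with JNJ (-3.47 ± 0.14, adjusted p = 8.8e-10). GDF3, a related ligand, went from 32.4 ± 4.6 to 0.27 ± 0.229 CPM (-7.29 ± 0.39, adjusted p = 1.1e-08). LEFTY1, an antagonist that Nodal signalling induces, went from 24.3 and 25.8 CPM with BRD and 28.9 and 38.9 CPM with JNJ to 1.92 and 2.29 CPM with BRD and 5.19 and 5.15 CPM with JNJ (-3.14 ± 0.24, adjusted p = 3.1e-07). LEFTY2, its neighbour and close relative, went from 4.54 ± 0.949 to 0.707 ± 0.509 CPM (-2.95 ± 0.70, adjusted p = 0.0036). TDGF1 rose from 546 ± 66 to 1861 ± 239 CPM (1.77 ± 0.10, adjusted p = 2.5e-08), but within series 46 its change was 0.28, adjusted p = 0.16. SKIL, a repressor of SMAD activity, rose from 221 ± 17.8 to 506 ± 21.5 CPM (1.20 ± 0.08, adjusted p = 1.2e-07), while within series 46 it was lower at 72 h (-0.76, adjusted p = 0.00043).

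BMP genes rose as a group. Of 15 tested, 14 rose and only ID3 fell, 7 of the rises were large, and the median was 1.93. BMP2, a ligand, went from 7.7 and 19.6 CPM with BRD and 8.36 and 3.54 CPM with JNJ to 244 and 227 CPM with BRD and 270.3 and 231 CPM with JNJ (4.77 ± 0.29, adjusted p = 3.8e-08). The targets ID1 and ID4, inhibitors of basic helix-loop-helix factors, went from 9.71 ± 1.83 to 132 ± 16.8 CPM (3.78 ± 0.15, adjusted p = 9.8e-10) and from 6.41 ± 2.21 to 137 ± 18.9 CPM (4.45 ± 0.22, adjusted p = 5.6e-09). SMAD9, a SMAD of this branch, went from 1.56 ± 0.118 to 29.7 ± 3.6 CPM (4.24 ± 0.25, adjusted p = 2.7e-08). All 4 genes were higher in each 72 h library than in any 24 h library. Members with an opposing role rose too, among them the secreted antagonists CHRD and GREM1 and the inhibitory SMAD6. Within series 46 the rise of ID1 was smaller (0.72, adjusted p = 0.0025), with BRD without CHIR at 81.3 CPM at 24 h.

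Wnt target genes mostly fell, and the receptors FZD5 and FZD8 rose. CHIR, which activates Wnt signalling, was given on the first day only, and its part in these changes was not tested. Of 19 targets tested, 12 fell and 3 rose, with 7 falls and 2 rises large and a median of -1.26. APCDD1, a membrane inhibitor of Wnt, went from 71.4 ± 6.71 to 7.31 ± 2.08 CPM (-3.31 ± 0.21, adjusted p = 4.5e-08) and NKD1, an intracellular one, from 110.3 ± 13.3 to 23 ± 1.64 CPM (-2.26 ± 0.14, adjusted p = 3.6e-08). In series 46, where no CHIR had been given at 24 h, they stood at 6.33 and 17.7 CPM at 24 h, and their changes to 72 h were 0.20, adjusted p = 0.67 and 0.36, adjusted p = 0.16. MYC went from 42.5 ± 2.28 to 7.62 ± 0.65 CPM (-2.48 ± 0.18, adjusted p = 2.1e-07). Of 18 ligands, receptors and antagonists tested, 7 rose and 7 fell. FZD5, a Wnt receptor, went from 59.8 and 63.9 CPM with BRD and 57 and 61 CPM with JNJ to 1909 and 2419 CPM with BRD and 2562 and 2029 CPM with JNJ (5.20 ± 0.12, adjusted p = 2.5e-11), and FZD8, its close relative, from 2.53 ± 1.26 to 212 ± 12.1 CPM (6.53 ± 0.15, adjusted p = 2.2e-11). Both rose within series 46 as well (5.58, adjusted p = 7.1e-09 for FZD5). Of the secreted antagonists, SFRP2 fell from 313 ± 14.3 to 17.2 ± 4.32 CPM (-4.18 ± 0.16, adjusted p = 8.4e-10) and SFRP1 rose from 133 ± 9.24 to 919 ± 133 CPM (2.79 ± 0.12, adjusted p = 1.4e-09), but SFRP1 already stood at 674 CPM in the BRD libraries without CHIR (0.46, adjusted p = 0.034 within series 46).

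FGF and retinoic acid genes split by member. Of 20 FGF and ERK genes tested, 7 rose and 10 fell, with 4 large in each direction. FGF19, an endocrine FGF, fell from 49 ± 15.5 to 0.797 ± 0.271 CPM (-5.97 ± 0.29, adjusted p = 5.3e-09) and PHLDA1, an ERK-induced gene, from 240.4 ± 44.3 to 20.4 ± 5.2 CPM (-3.56 ± 0.13, adjusted p = 6.3e-10), while DUSP4, a phosphatase that ERK signalling induces, rose from 29.5 ± 3.08 to 149.8 ± 3.74 CPM (2.35 ± 0.11, adjusted p = 2.6e-09). Of 15 retinoic acid genes tested, 5 rose and 6 fell. CYP26A1, the enzyme that degrades retinoic acid, went from 13.8 and 18.4 CPM with BRD and 16.8 and 18.9 CPM with JNJ to 796 and 1035 CPM with BRD and 971 and 967 CPM with JNJ (5.80 ± 0.14, adjusted p = 2.5e-11), a 55.8-fold rise with no overlap. RARB, a retinoic acid receptor, was at 0 in every 24 h library and at 18.3 ± 3.66 CPM at 72 h, at least 118-fold higher (adjusted p = 1.6e-07). CRABP2, which carries retinoic acid to the nucleus, rose from 96.3 ± 9.37 to 271 ± 37.5 CPM (1.49 ± 0.12, adjusted p = 3.6e-07).

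Adhesion and matrix genes changed member by member. KRT8, a keratin of simple epithelia, stood at 555 and 544 CPM with BRD and 597 and 566 CPM with JNJ at 24 h and at 3617 and 4448 CPM with BRD and 3214 and 4860 CPM with JNJ at 72 h (2.83 ± 0.13, adjusted p = 2.7e-09), and KRT19 went from 209 ± 48.8 to 1077 ± 148 CPM (2.38 ± 0.14, adjusted p = 2e-08). CDH1, E-cadherin, fell from 476 ± 20 to 239 ± 34.4 CPM (adjusted p = 3.5e-06) and CDH2, N-cadherin, rose from 637 ± 38.5 to 1320 ± 127 CPM (1.05 ± 0.09, adjusted p = 7.2e-07). Of 20 epithelial genes tested, 6 rose and 7 fell, and of 14 mesenchymal genes 3 rose and 5 fell, so neither list moved one way. The share of rises in both was near the 25.5% of all genes tested. Of 21 matrix genes tested, 10 rose and 7 fell, and all 5 large calls were rises. HAS2, which makes hyaluronan, went from 36.1 and 34.7 CPM with BRD and 17.1 and 14.2 CPM with JNJ to 775 and 784 CPM with BRD and 777 and 805 CPM with JNJ (5.06 ± 0.10, adjusted p = 1.1e-11). FN1, fibronectin, went from 368 ± 15 to 2504 ± 491 CPM (2.76 ± 0.12, adjusted p = 2.6e-09). The type IV collagen chains COL4A5 and COL4A6, whose genes lie head to head, went from 40.2 ± 7.38 to 166 ± 26.9 CPM (2.06 ± 0.13, adjusted p = 6.6e-08) and from 26.6 ± 4.41 to 183 ± 17.5 CPM (2.77 ± 0.13, adjusted p = 4.3e-09). These 4 matrix genes also rose within series 46, by 8.96, adjusted p = 1.6e-09 for HAS2, 4.68, adjusted p = 6.7e-08 for FN1, 1.74, adjusted p = 3.3e-05 for COL4A5 and 3.52, adjusted p = 2.7e-08 for COL4A6. The 24 h cells of that contrast had no CHIR, so it does not isolate time.

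Proliferation genes mostly fell by modest amounts, and none of the changes was large. Of 24 G2 and mitosis genes tested, 15 fell and 4 rose with a median of -0.50, and of 24 DNA replication genes 15 fell and 1 rose with a median of -0.45. MKI67, the Ki-67 protein, went from 921 ± 44.5 to 335 ± 25.5 CPM (-1.46 ± 0.09, adjusted p = 3.8e-08), and MCM3, part of the replicative helicase, from 618 ± 18.7 to 276 ± 34.6 CPM (-1.16 ± 0.10, adjusted p = 1e-06). CDK1, the mitotic kinase, went the other way, from 66 ± 2.39 to 197 ± 36.1 CPM (1.58 ± 0.13, adjusted p = 7e-07), but BRD without CHIR gave 468 CPM, and within series 46 CDK1 was lower at 72 h (-1.24, adjusted p = 0.00022). MCM3 changed by -0.21, adjusted p = 0.26 there and TYMS, thymidylate synthase, by -0.08, adjusted p = 0.65, and neither was called.

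Stress response and p53 target genes mostly fell, with few large changes. Of 20 genes of the unfolded protein and integrated stress responses tested, 13 fell and 2 rose. PHGDH, the first enzyme of serine synthesis, went from 452 ± 26.4 to 79.2 ± 6.83 CPM (-2.51 ± 0.10, adjusted p = 8.9e-10) and ASNS, asparagine synthetase, from 130.2 ± 12.9 to 43.2 ± 6.77 CPM (-1.59 ± 0.12, adjusted p = 3.6e-07). Their falls were also called within series 46 (-1.4, adjusted p = 3.4e-06 for PHGDH and -2.69, adjusted p = 1.8e-07 for ASNS). Of 20 p53 targets tested, 13 fell and 2 rose. CDKN1A, the cell cycle inhibitor p21, went from 23.1 ± 0.964 to 2.98 ± 0.585 CPM (-2.97 ± 0.26, adjusted p = 1.1e-06), against 7.26 CPM with BRD without CHIR. Of 21 glycolysis and hypoxia genes tested, 11 fell and 3 rose. HK1, a hexokinase, went from 312 ± 39.3 to 82.3 ± 15.3 CPM (-1.91 ± 0.13, adjusted p = 1.1e-07), and VEGFA, the only member with a large change, rose from 67.5 ± 17.6 to 311 ± 8.46 CPM (2.23 ± 0.12, adjusted p = 1e-08). Of 23 cholesterol synthesis genes, 7 rose and 6 fell, close to the shares over all genes tested (25.5% and 26%). Of 17 immediate early and heat shock genes, which cell handling can induce, 6 rose and 6 fell, with JUN at 13.6 ± 3.98 and then 55.5 ± 4.43 CPM (2.07 ± 0.16, adjusted p = 3.3e-07).

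Antigen presentation and interferon-linked genes moved both ways, with 5 rises and 7 falls among 17 tested. The share of rises was near the 25.5% of all genes tested. IFITM1 went from 162 ± 21.3 to 18 ± 3.19 CPM (-3.17 ± 0.14, adjusted p = 1.9e-09), with 13.9 CPM in the BRD libraries without CHIR and a change of 0.35, adjusted p = 0.23 within series 46. The replication-dependent histone H1-2 fell from 564 ± 37.7 to 181 ± 22.8 CPM (-1.64 ± 0.10, adjusted p = 5.1e-08).

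The 12 largest rises by the naming rule were SOX17, GATA3, SLC40A1, SLX1A, PRSS2, ANKRD1, PRSS1, FOXA1, ISL1, ACKR3, RARB and GREB1L. All but FOXA1 were at 0 in every 24 h library and passed the filter only through 72 h, so their direction was fixed beforehand. SLC40A1, the iron exporter ferroportin, was at 0 in every 24 h library and at 128 and 135 CPM with BRD and 109 and 134 CPM with JNJ, at least 821-fold higher (adjusted p = 2.1e-10). ANKRD1, a target of YAP, was at 0 and then at 52.8 and 61.4 CPM with BRD and 52.8 and 72.4 CPM with JNJ, at least 388-fold higher (adjusted p = 1.9e-09). ACKR3, a scavenger receptor for the ligand of CXCR4, reached 20.7 ± 2.45 CPM from 0, at least 135-fold higher (adjusted p = 7.2e-08), and GREB1L, linked to kidney development, reached 18.4 ± 5.69 CPM from 0, at least 119.5-fold higher (adjusted p = 1.3e-07). The BRD libraries without CHIR held 0.651 CPM of ANKRD1, 0.674 CPM of ACKR3 and 0.496 CPM of GREB1L. Within series 46 their log2 changes were 7.16, 5.15 and 4.90, rises smaller than the bounds given here. PRSS1 and PRSS2, trypsinogens of near-identical sequence, reached 43.8 and 67.7 CPM from 0, and how their reads were shared is uncertain. SLX1A, a near-identical copy of SLX1B, stood at 0 at 24 h and 81.9 CPM at 72 h, but at 64.5 CPM in the BRD libraries without CHIR, so within series 46 it changed by 0.38, adjusted p = 0.14.

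Among the 12 largest falls were H4C12, SOGA3, BOLA2B, POC1B-GALNT4, TRIM39-RPP21, ASDURF, GOLGA6C, FOXB1, H2AC7, FSTL5 and H2BC3. Of these, H4C12, H2AC7, H2BC3, BOLA2B, GOLGA6C, POC1B-GALNT4, TRIM39-RPP21, ASDURF and SOGA3 are histone or other near-copies, read-through or overlapping genes, whose counts the authors' quantification could split, so they are uncertain. H4C12 stood at 224 CPM at 24 h and 0 at 72 h, and was at 0 in the BRD libraries without CHIR too. FOXB1, a forkhead factor of the nervous system, went from 57.6 ± 9.71 to 0.259 ± 0.242 CPM (-8.25 ± 0.36, adjusted p = 2.1e-09), and FSTL5, a follistatin-like protein, was at 0 in 3 of the 4 libraries of 72 h, from 10.5 ± 1.77 CPM at 24 h (adjusted p = 1.3e-05).

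BRD and JNJ differed for few genes in this change. Each arm was tested alone within the same fit. With BRD 5541 genes were called (37.3%), 17.3% of those tested higher and 19.9% lower at 72 h. With JNJ 5558 were called (37.4%), 18.1% higher and 19.3% lower. Of these, 4400 were called in the same direction with both compounds and 4 in opposite directions. Of the 820 large rises 539 were called in each arm alone, and of the 690 large falls 536. A large call already required that times not overlap across both compounds. Its direction in each arm was thus fixed by the selection, and these counts do not show that the compounds act alike. The difference between the arms was called for 8 genes (0.0538%), 6 with the higher change under BRD (0.0404%) and 2 with the lower (0.0135%), against 732 at an unadjusted p under 0.05, in edgeR's test. DESeq2 called 34 and limma-voom none. A low count does not show that the compounds act alike, since each arm has 2 libraries per time. Doses of BRD and JNJ are not given in the sources used here, and whether the compounds were matched in dose is therefore unknown.

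Of those 8 genes, 4 carry clone identifiers (AC112128.1, AC116366.2, AL132780.3 and FO681492.1) and SERF1B is a near-identical copy, leaving TBX3, HAS2 and SLC16A3. TBX3, a T-box repressor of early hepatic progenitors, was at 0 CPM in both BRD libraries and at 1.74 and 1.9 CPM in the JNJ libraries at 24 h. At 72 h it stood at 103 and 106 CPM with BRD and 103 and 103 CPM with JNJ (adjusted p = 8.1e-11 for the common rise and 0.0053 for the difference). The difference thus rests on the low 24 h levels, where a 0 covers more than counting error. HAS2 was lower with JNJ than with BRD at 24 h, and rose by 4.45 with BRD and 5.67 with JNJ (difference -1.22 ± 0.18, adjusted p = 0.037). SLC16A3, a lactate exporter, rose with BRD from 17.1 and 16.1 CPM to 39.2 and 48.3 CPM (1.38) and fell with JNJ from 54.7 and 59.7 CPM to 34 and 36.6 CPM (-0.69), a difference of 2.07 ± 0.29, adjusted p = 0.027. The number called ran from 0 to 19 when single libraries were left out, and was 0 without the first BRD library of 24 h.

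The change with the compounds was then set against the change with Activin A, in a fit of 12 libraries, where 6017 genes were called between the times with Activin A (39.6%, 19% higher and 20.6% lower). The difference of the changes was called for 1371 of 15207 genes (9.02%), 637 with a higher change in the compound arms (4.19%) and 734 with a lower one (4.83%). Of the 1371, 524 changed the same way in both with different size, 165 changed in opposite directions, 378 were called only with the compounds and 299 only with Activin A, and 5 in neither. Leaving out the first or the second Activin library of 72 h lowered the count to 742 or 825.

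NODAL, LEFTY1 and LEFTY2 fell with the compounds, while LEFTY1 and LEFTY2 rose with Activin A and NODAL was not called there (adjusted p = 0.76). With Activin A, NODAL stood at 192 and 226 CPM at 24 h and 244 and 196 CPM at 72 h (0.07 against -3.47 with the compounds, difference -3.55 ± 0.21, adjusted p = 3.5e-08). LEFTY1 rose with Activin A from 7.38 and 9.96 CPM to 204 and 158 CPM (4.38 against -3.13, difference -7.52 ± 0.31, adjusted p = 5.1e-10). LEFTY2 rose with Activin A from 1.96 and 1.17 CPM to 512 and 341 CPM (8.07 against -2.90, difference -10.97 ± 0.43, adjusted p = 2.9e-10). NODAL overlapped between the arms at 24 h, where LEFTY1 and LEFTY2 were lower with Activin A than with the compounds, and at 72 h all 3 genes were higher in each Activin library than in any compound library. Of the 21 Nodal and Activin genes, 7 had a lower change with the compounds and 2 a higher one. CER1 was far more abundant with Activin A at both times, at 1354 and 4503 CPM, and its difference of change was not called (-0.75 ± 0.28, adjusted p = 0.12).

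Among BMP and matrix genes, most called differences were toward a higher change with the compounds. Of 15 BMP genes, 9 had a higher change with the compounds and none a lower one. BMP2, a BMP ligand, rose in both, with Activin A from 62.1 to 439 CPM and with the compounds from 9.79 to 243 CPM (difference 1.95 ± 0.39, adjusted p = 0.0039), so its level was higher with Activin A at both times. ID1 fell with Activin A from 47.2 and 67.2 CPM to 25.9 and 24.9 CPM, while it rose with the compounds (difference 4.95 ± 0.27, adjusted p = 1.3e-08). ID4 was at 15.8 and 16.6 CPM with Activin A (difference 4.36 ± 0.35, adjusted p = 1e-06), and SMAD9 at 3.51 and 1.11 CPM (difference 5.71 ± 0.79, adjusted p = 0.00022). Of 21 matrix genes, 11 had a higher change with the compounds and 2 a lower one. HAS2 was already at 544 CPM with Activin A at 24 h and reached 1013 CPM (difference 4.16 ± 0.15, adjusted p = 6.9e-11), so the compound arms approached it from below. FN1 and COL4A6 reached 487 and 38.9 CPM with Activin A, from 274 and 36.8 CPM (differences 1.93 ± 0.19, adjusted p = 6.1e-06 and 2.71 ± 0.24, adjusted p = 2.4e-06).

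Of the 20 definitive endoderm factors, 5 had a higher change with the compounds than with Activin A and 3 a lower one. GATA3, at 0 with the compounds at 24 h, reached 6.28 CPM with Activin A at 72 h, against 138 CPM with the compounds (adjusted p = 1.8e-05 for the difference of change). TBX3 fell with Activin A from 21.2 to 6.05 CPM, and rose to 104 CPM with the compounds (difference 11.47 ± 0.36, adjusted p = 6.9e-11). SOX17 reached 435 CPM with Activin A from 1.11 CPM, above the 265 CPM of the compounds. Its difference of change passed the test (adjusted p = 0.0021) in the direction of the compounds, which started from 0, and limma-voom did not call it (adjusted p = 0.14). GATA6 rose from 185 to 424 CPM with Activin A (difference 2.44 ± 0.18, adjusted p = 3e-07), starting higher, and KIT from 51.9 to 310 CPM (difference 1.15 ± 0.15, adjusted p = 0.00015). FOXA1, HNF4A and ISL1 reached 5.44, 1.84 and 1.43 CPM with Activin A, from 0 at 24 h, against 49.4, 14.6 and 24.9 CPM with the compounds. Their differences of change were not called (adjusted p = 1 for both FOXA1 and ISL1), and with 0 at 24 h in every or nearly every library of both arms the fit cannot size those of FOXA1 and ISL1, while that of HNF4A was 0.67 ± 1.01, adjusted p = 0.8. FOXA2 and HHEX were not called either (adjusted p = 0.7 and 0.61).

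**Figure D4:**
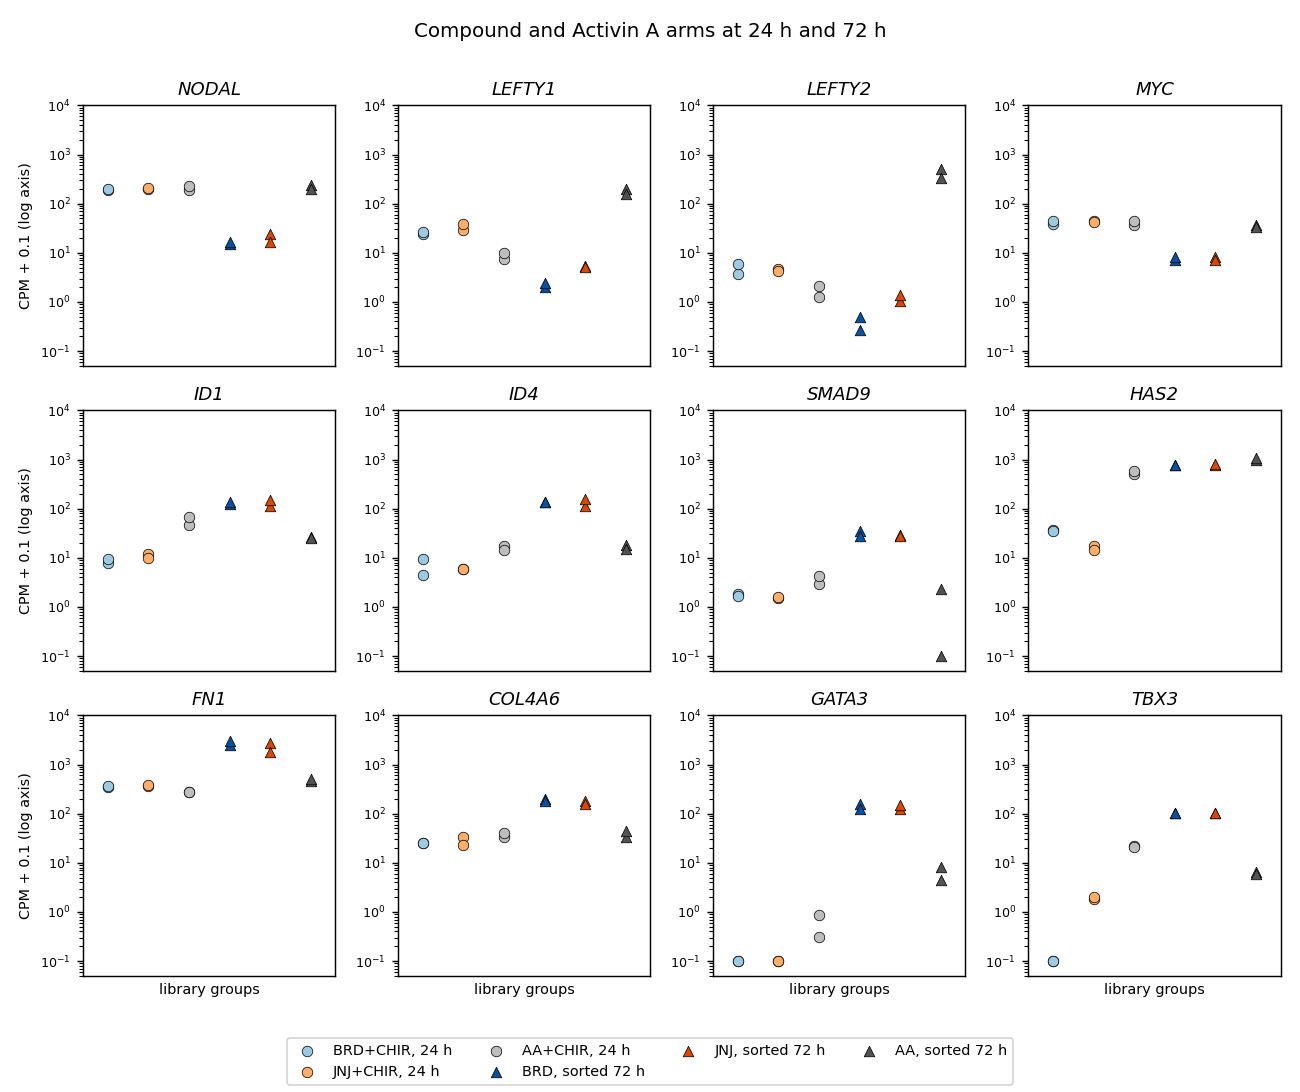
Levels in CPM + 0.1 on a log axis of 12 genes in the compound and Activin A libraries, with circles for 24 h and triangles for 72 h and 2 libraries in each column. At 72 h LEFTY1 and LEFTY2 are low with the compounds and high with Activin A, while ID1, ID4, SMAD9, FN1, COL4A6, GATA3 and TBX3 are highest in the compound libraries of 72 h.

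Mesodermal and proliferation genes also differed between the arms. PDGFRA fell with Activin A from 98.4 to 27.8 CPM and rose from 0.389 to 20.9 CPM with the compounds (difference 9.95 ± 0.88, adjusted p = 4.7e-06). FOXC1 went from 22.4 to 47.6 CPM with Activin A (difference 5.71 ± 0.91, adjusted p = 0.00077), and DESeq2 did not call it (adjusted p = 0.092). KDR fell further with the compounds (difference -1.70 ± 0.22, adjusted p = 0.00014). Of 24 G2 and mitosis genes, 21 had a lower change with the compounds and none a higher one. Of 24 DNA replication genes, 5 had a higher change with the compounds and none a lower one, among them MCM3, which fell with Activin A from 563 to 169.8 CPM (difference 0.57 ± 0.16, adjusted p = 0.034). The difference of MCM3 was not called by limma-voom (adjusted p = 0.0536), nor in 8 of the 12 fits that left out 1 library (adjusted p = 0.0546 to 0.175). MKI67 fell with Activin A from 1036 to 678 CPM (difference -0.85 ± 0.14, adjusted p = 0.00077), and BUB1, a checkpoint kinase, was there at 279 and 280 CPM (difference -0.96 ± 0.15, adjusted p = 0.00073). Of 20 stress response genes, 7 had a lower change with the compounds, among them ASNS, at 188 and 163 CPM with Activin A (difference -1.38 ± 0.18, adjusted p = 0.00015). MYC with Activin A was at 41.2 and 35.3 CPM, and fell with the compounds (difference -2.26 ± 0.27, adjusted p = 5.5e-05).

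Within library series 46, the 72 h libraries were compared with BRD without CHIR at 24 h, in 6 libraries. Of 13993 genes tested 5525 were called (39.5%), 20.2% higher and 19.2% lower at 72 h. This contrast shares its 4 libraries of 72 h with the main one, so a gene's direction in both is not independent, and the values within series 46 are given beside some of the genes above. Of the 820 large rises 775 could be tested here, and 546 were called higher (70.5%) and 29 lower. Of the 690 large falls 552 could be tested, and 337 were called lower (61.1%) and 17 higher. Without the first of the BRD libraries lacking CHIR the number of genes called was 3175, and without the second it was 3456. CHIR and sorting still differ in this contrast and cannot be told apart from time there.

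**Figure D5:**
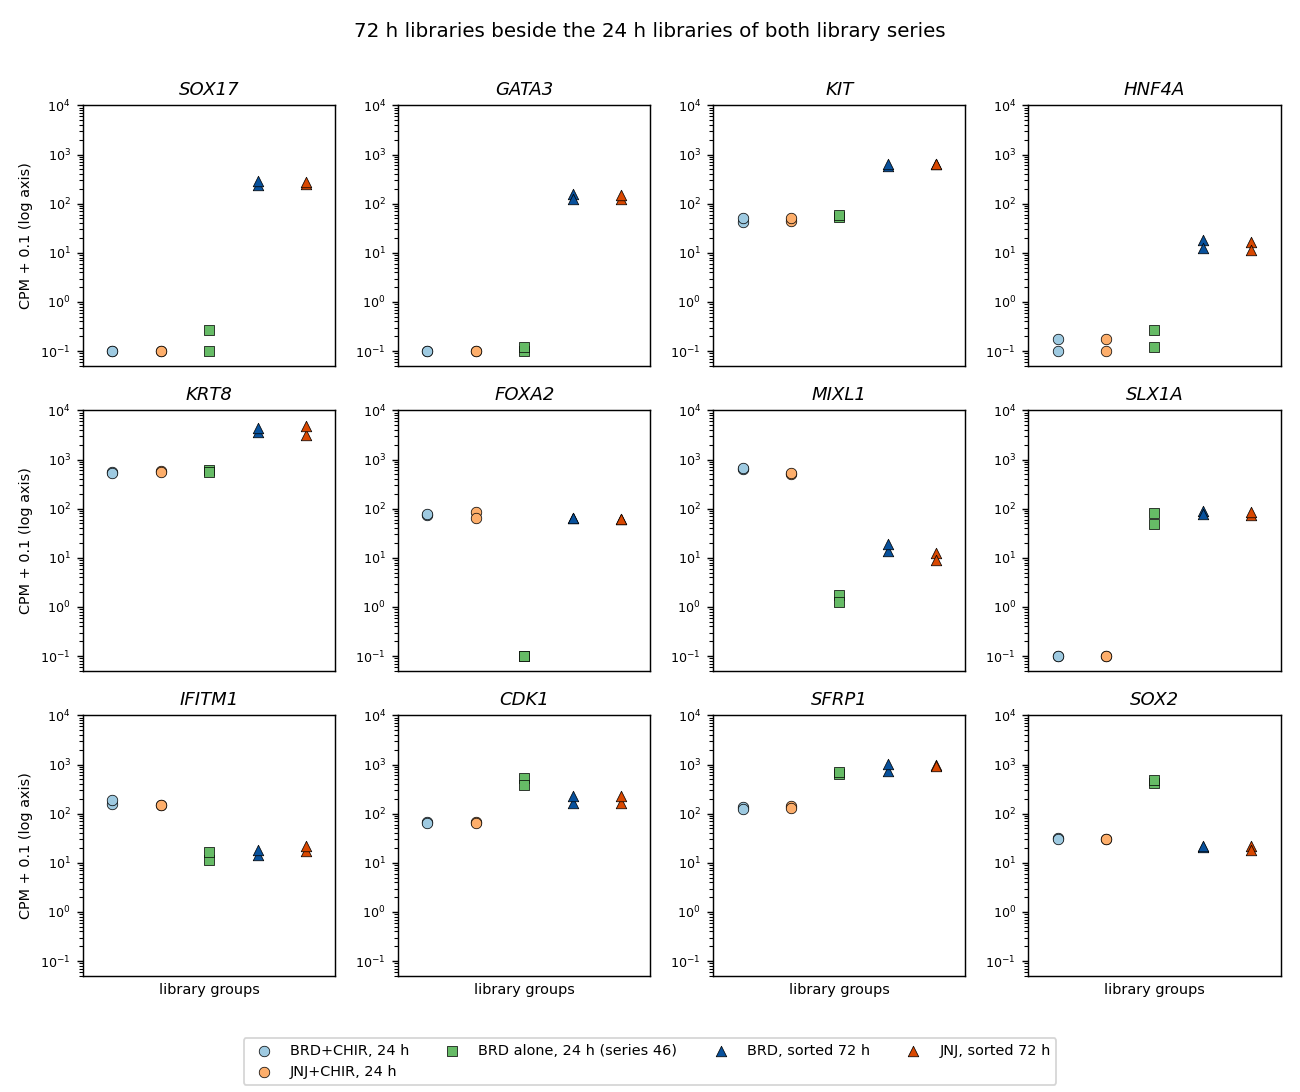
Levels in CPM + 0.1 on a log axis of 12 genes in the 24 h libraries of series 38 (circles), the BRD libraries without CHIR of series 46 at 24 h (squares) and the 72 h libraries of series 46 (triangles). SOX17, GATA3, HNF4A, KIT and KRT8 are lower in both sets of 24 h libraries than at 72 h, FOXA2 and MIXL1 are absent or lowest without CHIR, and SLX1A and SFRP1 in the squares lie near the 72 h libraries.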

How the data were processed

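Bulk RNA from H1 cells was made into stranded total RNA libraries and sequenced single-end, per the labels' protocols. The deposited table holds expected counts per gene for 30 libraries. The submitters' processing notes name Salmon 1.4.0, edgeR 3.34.0 and limma 3.48.1 without their roles, and no build is given in the sources used here. Expected counts were rounded to whole counts. The 10 MTRNR2L genes were removed, filterByExpr and TMM applied, and edgeR 4.0.16 (R 4.3.3) fitted with glmQLFit, 4 groups of 2 libraries and 4 residual degrees of freedom, with Benjamini-Hochberg adjustment over all genes. Activin libraries joined a fit of 12, and BRD without CHIR a fit of 6. Levels were scaled over 14 libraries.

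Depth ran from 5.13 to 27.9 M (mega) counts. A floor of 3 counts is 0.154 CPM at 24 h and 0.483 CPM at 72 h, for counting error only. On simulated counts, 200 of 14478 genes were changed, picked among the better counted ones. Of these changes, 78% of 2-fold and 91% of 4-fold ones were recovered, and 7.14% of calls were false. The simulation changed far fewer genes than were called here and did not copy the uneven 0s of 24 h. Its rates may therefore not hold for the data. Named genes were the 12 largest rises and 12 largest falls called large (mean of at least 5 CPM and 10 counts in each library of the higher group, no clone identifiers), up to 4 called members of each list by p, the stage genes, and the 8 largest in each direction of both differences of change. Genes named only within a list, with no value, lie outside this rule. The members and lists were chosen with earlier results of these data known. Alternatives were RLE and upper quartile scaling, no filter, DESeq2 1.42.0, limma-voom 3.58.1, a replicate block, a test against 2-fold, a fit over all 30 libraries, MTRNR2L genes kept, unevenly counted genes left out, each library left out, and thinning to the smallest library, which was added after seeing the data. Single-cell files were not used, and some named genes are not reported here.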

Additional observations from a re-analysis of the deposited data

Results flagged for a closer look

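Each result here was singled out because its change from 24 h to 72 h differed between arms by the test of the difference itself (edgeR's quasi-likelihood test, interaction term, Benjamini-Hochberg adjustment). Values are differences of log2 changes. Where an arm was at 0 CPM at a time the fitted size depends on the prior count and is no bound.

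Between the compounds, TBX3 differed by 7.65 and SLC16A3 by 2.07 toward BRD and HAS2 by -1.22 toward JNJ. SERF1B, a near-identical copy, differed by 4.90.

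Of the Nodal and streak genes, the compound change minus the Activin change was -3.55 for NODAL, -7.52 for LEFTY1, -10.97 for LEFTY2, -1.65 for MIXL1 and 2.68 for TBXT, and 14.37 for CFC1, a Nodal co-receptor with a near-identical copy, which was at 0 in the compound libraries of 24 h and at 8.77 ± 0.745 CPM in those of 72 h (9.85, adjusted p = 1, without the first Activin library of 24 h). Of the pluripotency genes it was 0.91 for POU5F1 and 1.71 for SOX2. Of the endoderm genes it was 6.30 for SOX17, 10.32 for GATA3, 11.47 for TBX3, 1.15 for KIT, 1.07 for GATA4, 2.44 for GATA6, 1.45 for SHISA2, 0.90 for FZD5 and 1.94 for FZD8. GATA4 and SOX2 lost the call when single libraries were left out (adjusted p = 0.16 for GATA4 without the first Activin library of 24 h and 0.13 for SOX2 without the second of 72 h), and limma-voom did not call TBXT (adjusted p = 0.15).

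Of BMP and matrix genes it was 4.95 for ID1, 4.36 for ID4, 5.71 for SMAD9, 1.95 for BMP2, 4.16 for HAS2, 1.93 for FN1, 1.86 for COL4A5, 2.71 for COL4A6 and 2.30 for ITGA5, a fibronectin receptor chain. Of retinoic acid and mesoderm genes it was 2.53 for CYP26A1, 1.45 for CRABP2, 6.72 for RARB, 5.71 for FOXC1, 9.95 for PDGFRA and -1.70 for KDR. Of signalling, stress and division genes it was -2.26 for MYC, -1.81 for DUSP4, -1.38 for ASNS, -0.67 for PHGDH, -1.68 for STC2, -0.85 for MKI67, -0.96 for BUB1, 0.57 for MCM3, -0.68 for CDK1 and 1.47 for SLC16A3. Most fits without a library did not call CDK1 (adjusted p up to 0.17) or MCM3 (adjusted p up to 0.175), and limma-voom did not call STC2 (adjusted p = 0.0643).

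Of the 12 largest rises it was 5.87 for SLC40A1, 6.44 for SLX1A, 5.84 for PRSS1, 7.96 for PRSS2 and 11.70 for GREB1L. Both compound arms were at 0 at 24 h for these 5 genes, and limma-voom called none of them. Without single Activin libraries of 24 h the values were 0.63 for SLC40A1, 0.71 for RARB and 6.52 for GREB1L, none of them called (adjusted p = 1 for each).

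By the rule of the largest differences, SAMD11, of unsettled function, reached 71.7 ± 2.81 CPM with the compounds from 0.225 CPM and went from 8.41 to 3.52 CPM with Activin A (11.26). The other high ones were at low levels: ANPEP (12.78), an aminopeptidase, TMEM132E (12.43) and GASK1B (10.04). The low ones were also at low levels: ADAMTS8 (-7.28), ELAC1 (-8.53), MFSD6 (-10.42), MINDY4 (-8.04), POC1B-GALNT4 (-10.94) and RIMBP2 (-7.31). ANPEP was not called without either Activin library of 72 h (adjusted p = 0.094 and 0.07), and TMEM132E, GASK1B, POC1B-GALNT4 and RIMBP2 also lost the call in at least 1 fit without a library. Limma-voom did not call MFSD6 (adjusted p = 0.086) or MINDY4 (adjusted p = 0.0986).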

How the results depend on the processing

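The count of genes called between 24 h and 72 h stayed within 1.5 times its value of 7657 under every alternative run except the test against a 2-fold change, which called 2295 (1088 higher, 1207 lower). Leaving out single libraries gave 6406 to 7759 for this count, 1361 to 1645 for large changes, 4031 to 6149 with BRD alone, 3908 to 5478 with JNJ alone, 0 to 19 for the difference between the compounds, 742 to 1528 for the difference from Activin A and 3175 to 5670 within series 46. The difference between the compounds was called for 15 genes without the filter, 34 with DESeq2 and 0 with limma-voom. The difference from Activin A was called for 770 genes with limma-voom, 36.5% of them with the higher change in the compound arms against 46.5% in the edgeR fit. A replicate block gave 7559 genes called, 1504 of them large, and 4 for the difference between the compounds. The numbers did not pair the libraries: same-numbered libraries correlated in their deviations from the group means by -0.021 to 0.007 in 5 of 6 pairings and by 0.199 between BRD and JNJ at 72 h. Thinning to the smallest library, added after seeing the data, gave 7519 called and 1429 large. For the named genes, 2683 gene results of the change kept direction and side of the threshold, 41 missed the threshold and 6 newly passed it. For the difference from Activin A 1184 did so and 129 missed it. SLX1A ran from -0.56 to 7.32 when single libraries were left out, and reversed to -0.56 without the first Activin library of 24 h (adjusted p = 1). The cause of these shifts was not tested. Depth limits genes near the floor, where a 0 at 24 h covers more than counting error.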
